A study of Mus musculus with 157 samples.

Results

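The 56 genes described here encode homeodomain transcription factors outside the Hox clusters that pattern the embryo, and all were found among the 23643 gene symbols of the total polymerase table and the 23685 of the Ser5p table. They were listed by name, but with earlier results of these data known. They are grouped by where they are best known to act: 10 genes of the forebrain and eye, 11 of the ventral forebrain and branchial arches, 8 of the midbrain and hindbrain, 10 of the ventral spinal cord and its motor neurons, 7 of dorsal neural tube and interneuron lineages, and 10 of mesoderm, sense organs and other sites. They lie on 12 chromosomes, 47 of them have a single transcript in the tables, and the transcript with the highest mean read count stood for each of the other 9.

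The cells were wild-type E14 cells, a mouse embryonic stem (ES) cell line, grown on gelatin in medium with serum and leukemia inhibitory factor, and all groups share that line and genotype. Treatment was retinoic acid (RA) at 1 µM, a vitamin A derivative that drives ES cells out of the pluripotent state, for 2, 4, 6, 24, 48 or 72 h, and untreated cells are the 0 h group. RNA polymerase II was measured by crosslinked ChIP-seq with 3 antibodies: NTD, against the amino terminus of its largest subunit and so against total polymerase, and Ser5p and Ser2p, against serine 5 or serine 2 phosphorylation of its carboxy-terminal repeats. NTD and Ser5p were counted in the 2 kb centred on each transcription start site, and NTD and Ser2p over gene bodies. NTD had 17 libraries, with 2 per time point except 3 each at 4, 6 and 48 h. The other antibodies had 18, with 3 at 2 h as well. Replicate number 4 occurred only at 0 to 6 h and number 2 only at 24 and 48 h. Comparisons of early with late times therefore also compare different sets of replicate numbers. Separate cultures are not stated for the replicates, so the p-values measure only the spread between these libraries, which may be technical.

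Serine 5 phosphorylation marks polymerase that has initiated and is held near the promoter, and serine 2 phosphorylation marks polymerase that is elongating through the gene. In mouse ES cells, many genes for developmental regulators are silent but carry Polycomb repressive marks together with Ser5p polymerase at their promoters, a state described as poised. Homeobox genes of this kind are switched on later, each in a restricted territory of the embryo, in response to signals such as RA, Sonic hedgehog, Wnt and fibroblast growth factors.

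The promoter tables held 1088159 to 3210580 reads per NTD library and 1504737 to 3347830 per Ser5p library, and the body tables held 11684907 to 28745658. At the 56 promoters the raw reads summed to 629 to 1587 per NTD library and 1377 to 4812 per Ser5p library, so a single gene rested on few reads. Values below are CPM (reads scaled to a common library total by TMM), tests are edgeR's quasi-likelihood test with Benjamini-Hochberg adjustment over all transcripts at an adjusted p of 0.05, and all 56 genes passed the filter on low counts in every table. The RA target genes Rarb and Cyp26a1 rose in NTD by 1.75 and 2.69 on the log2 scale at 6 h against 0 h (adjusted p = 0.00015 and 2.7e-06). In Ser5p their changes at 6 h against 0 h were 1.10 and 1.24, and neither was called (adjusted p = 0.14 and 0.067, edgeR). Of 12 pluripotency genes, 7 were called lower in NTD at 48 h against 0 h, where 5.21% of all genes were. The Ser5p library of 0 h replicate 4 stood apart from the other 0 h Ser5p library at the homeobox promoters, and the Ser5p counts and named changes against 0 h are followed by their values without it. Counts with a library left out are given without the share of all genes called in that fit. They show only how far a count moved, and calls are uncertain where a time keeps no replicate.

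At the 56 promoters, Ser5p was high in untreated cells and low after 48 h of RA, while NTD stayed at a low level. The median Ser5p level of the 56 genes was 22.9 and 45.4 CPM in the 2 libraries at 0 h, 33.3, 18.7 and 31.5 CPM at 2 h, 29.1, 13.4 and 20.6 CPM at 4 h, and 17.7, 15.7 and 25.7 CPM at 6 h. It was 16 and 19.0 CPM in the 24 h libraries, 13.96, 12.8 and 11.8 CPM in those of 48 h, and 13.9 and 11.1 CPM in those of 72 h. The libraries at 48 and 72 h lay below all others except 4 h replicate 3. The median NTD level of the same genes was 6.21 to 9.30 CPM over the 17 libraries, with no separation of late from early libraries, against 13.2 to 15.7 CPM for the median of all genes. The median of all genes in Ser5p was 15.6 to 18.3 CPM.

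**Figure D1:**
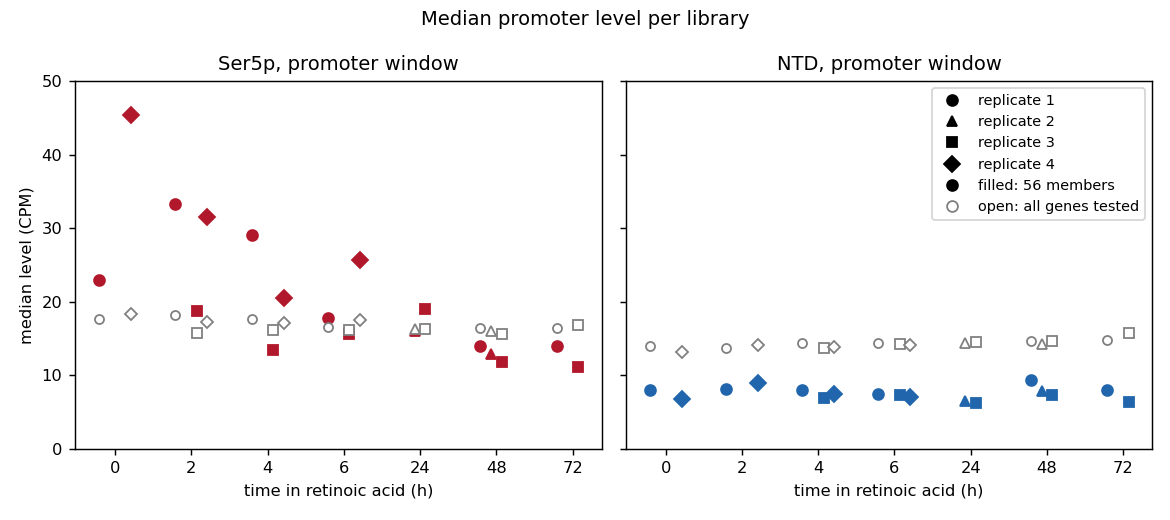
Median CPM in the promoter window for each library, by hours of RA, with Ser5p on the left and NTD on the right; filled points are the median over the 56 homeobox genes and open points the median over all genes of the table. The 56 genes lie at 11.1 to 13.96 CPM of Ser5p in the 5 libraries of 48 and 72 h, against 22.9 and 45.4 CPM in the 2 libraries of 0 h.

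Set against NTD, the Ser5p level of these promoters was near the top of the genome in untreated cells and lower in the ranking after 48 h of RA. The log2 ratio of mean Ser5p to mean NTD CPM, each with 0.5 added, had a median over the 56 genes of 2.17 at 0 h, 1.76 at 2 h, 1.42 at 4 h, 1.28 at 6 h, 1.31 at 24 h, 0.61 at 48 h and 0.63 at 72 h. The median over the 22935 genes with both values stayed between 0.18 and 0.25. The ratio compares 2 antibodies in separate libraries, so it ranks genes within a time and does not give a share of polymerase that is phosphorylated. At 0 h 47 of the 56 genes were in the highest 10% of all genes, and at 48 h 20 were. The median percentile was 83.5 at 48 h and 80.7 at 72 h, against 99.1 at 0 h. Without Ser5p 0 h replicate 4 the median ratio at 0 h was 1.51, the median percentile 97.9 and the number in the highest 10% 44.

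The genes did not share this excess equally. Barhl2, a regulator of dorsal spinal cord and retinal neurons, had the highest ratio at 0 h, 3.35. The lowest belonged to Isl1, a LIM-homeodomain factor of motor neurons, at -0.47, and its NTD values at 0 h were 9.30 and 50.6 CPM with the higher value in replicate 4. Gbx2, which positions the anterior hindbrain and is also expressed in ES cells, was at -0.13 at 0 h and at -0.16 at 48 h. Lhx3, a motor neuron and pituitary factor, was at 0.03, Barhl1, a gene of the inner ear and cerebellum, at 0.07, and Phox2a, a determinant of noradrenergic neurons, at 0.45, all among the lowest at 0 h. By library pairs of the same number, the median ratio was 1.41 and 2.78 at 0 h and 0.57 to 0.67 at 48 h, and without NTD 0 h replicate 4 the median at 0 h was 2.06.

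**Figure D2:**
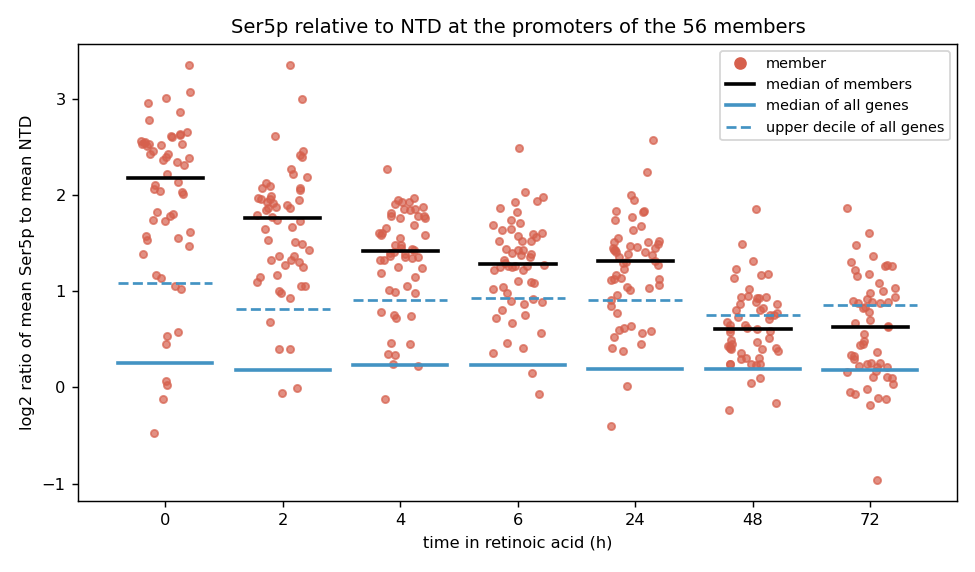
Log2 ratio of mean Ser5p to mean NTD CPM in the promoter window by hours of RA, for the 56 homeobox genes and for all genes. The median of the 56 genes stands at 2.17 at 0 h and at 0.61 and 0.63 at 48 and 72 h, while the median of all genes stays between 0.18 and 0.25.

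The sequences just before the start sites show what kind of promoter these windows hold. The 5 below are the 250 bases before the RefSeq start (build GRCm38.p6, mm10), written along the gene's strand with every CG pair in capitals. They were chosen to show the gene with the largest fall in Ser5p at 48 h (Nkx1-1), the gene with the highest ratio (Barhl2), genes whose NTD rose (Lhx4 and Dlx1) and a gene whose Ser5p values overlapped between 48 and 0 h (Gbx2). Nkx1-1 lies at chr5:33430734-33434090 on the minus strand with its 250 bases at chr5:33434091-33434340. The stretch of Barhl2 is chr5:106458167-106458416 on the minus strand. That of Lhx4 is chr1:155742028-155742277 on the minus strand, inside the annotated gene span chr1:155698031-155751726, and that of Dlx1 is chr2:71529195-71529444 on the plus strand, inside the span chr2:71528113-71533981. Gbx2 lies at chr1:89927962-89931176 on the minus strand, with its stretch at chr1:89931177-89931426. The tables give no coordinates, so the counted start of a transcript may not be the RefSeq start.
Nkx1-1: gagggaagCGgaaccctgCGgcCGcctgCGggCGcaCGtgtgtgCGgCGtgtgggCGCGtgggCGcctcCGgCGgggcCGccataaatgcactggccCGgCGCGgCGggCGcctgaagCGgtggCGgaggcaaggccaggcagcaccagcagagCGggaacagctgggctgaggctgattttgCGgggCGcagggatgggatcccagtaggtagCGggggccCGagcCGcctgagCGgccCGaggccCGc
Barhl2: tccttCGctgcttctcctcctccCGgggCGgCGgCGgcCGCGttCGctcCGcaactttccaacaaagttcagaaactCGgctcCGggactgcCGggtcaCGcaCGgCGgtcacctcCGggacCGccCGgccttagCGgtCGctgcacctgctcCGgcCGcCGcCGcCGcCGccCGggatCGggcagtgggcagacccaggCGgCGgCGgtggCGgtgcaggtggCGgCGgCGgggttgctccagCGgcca
Lhx4: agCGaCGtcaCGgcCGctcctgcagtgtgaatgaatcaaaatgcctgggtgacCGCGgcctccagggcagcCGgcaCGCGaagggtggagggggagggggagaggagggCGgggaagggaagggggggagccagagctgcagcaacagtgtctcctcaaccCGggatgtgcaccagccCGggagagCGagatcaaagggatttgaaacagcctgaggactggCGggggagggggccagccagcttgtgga
Dlx1: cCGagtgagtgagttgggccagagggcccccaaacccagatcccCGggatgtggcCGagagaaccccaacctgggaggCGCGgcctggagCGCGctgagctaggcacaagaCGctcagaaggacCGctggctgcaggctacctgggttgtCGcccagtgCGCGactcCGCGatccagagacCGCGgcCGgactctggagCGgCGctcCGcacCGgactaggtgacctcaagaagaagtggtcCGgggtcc
Gbx2: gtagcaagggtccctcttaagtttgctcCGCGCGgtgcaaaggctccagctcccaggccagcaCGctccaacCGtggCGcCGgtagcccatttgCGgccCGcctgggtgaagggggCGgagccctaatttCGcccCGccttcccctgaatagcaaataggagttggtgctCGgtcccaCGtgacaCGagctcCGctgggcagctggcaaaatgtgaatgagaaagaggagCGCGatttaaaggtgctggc

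Nkx1-1 and Barhl2 hold 30 and 36 CG pairs in these 250 bases, Lhx4 14, Dlx1 22 and Gbx2 18. RefSeq gave 50 promoters for 44 of the 56 genes. Their median number of CG pairs was 17, with a range of 1 to 36, against 6 over 32851 promoters of 27025 genes. Their median GC content was 64.2%, against 52.4% over all promoters, and 74.0% had an observed to expected CG ratio over 0.6, against 34.0% of all promoters. The letters TATAAA, searched on both strands, were in 4 of the 50 (8.0%; Evx2, Gsx2, Hmx2 and Lhx3) and in 12.4% of all promoters. The letters AGGTCA, which nuclear receptors including RA receptors bind, were in 3 (6.0%; Barhl1, Dlx1 and Tlx3) and in 14.02% of all promoters. These letters repeated in the same direction with 5 bases between were in 0 of the 50 and in 3 of all promoters, and the homeodomain core TAATTA was in 0 of the 50 and in 4.84% of all promoters. Only these letters in these windows were searched. Another RefSeq gene lies within 1 kb of 28 of the 56 genes and overlaps 15 of them, among them Dlx1as at Dlx1, and ChIP reads carry no strand, so reads of such neighbours cannot be told apart. None lies within 1 kb of Nkx1-1, Lhx4, Isl1, Dlx3, Tlx1, Tlx3, Vax1, Nkx6-1 or Lmx1a.

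Ser5p changed over time at most of the 56 promoters. The test over all 7 times called 43 of 56 genes, where 14.2% of all genes tested were called, and DESeq2 called 34, all among the 43. The 13 genes not called were Six6, Lhx3, Lhx4, Dlx1, Dlx2, Dlx3, Isl1, Isl2, Nkx2-5, Barhl1, Phox2a, Pitx3 and Gbx2. Without 0 h replicate 4, 39 of the 43 were called, and without all 4 Ser5p libraries numbered 4, 31 were.

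**Figure D3:**
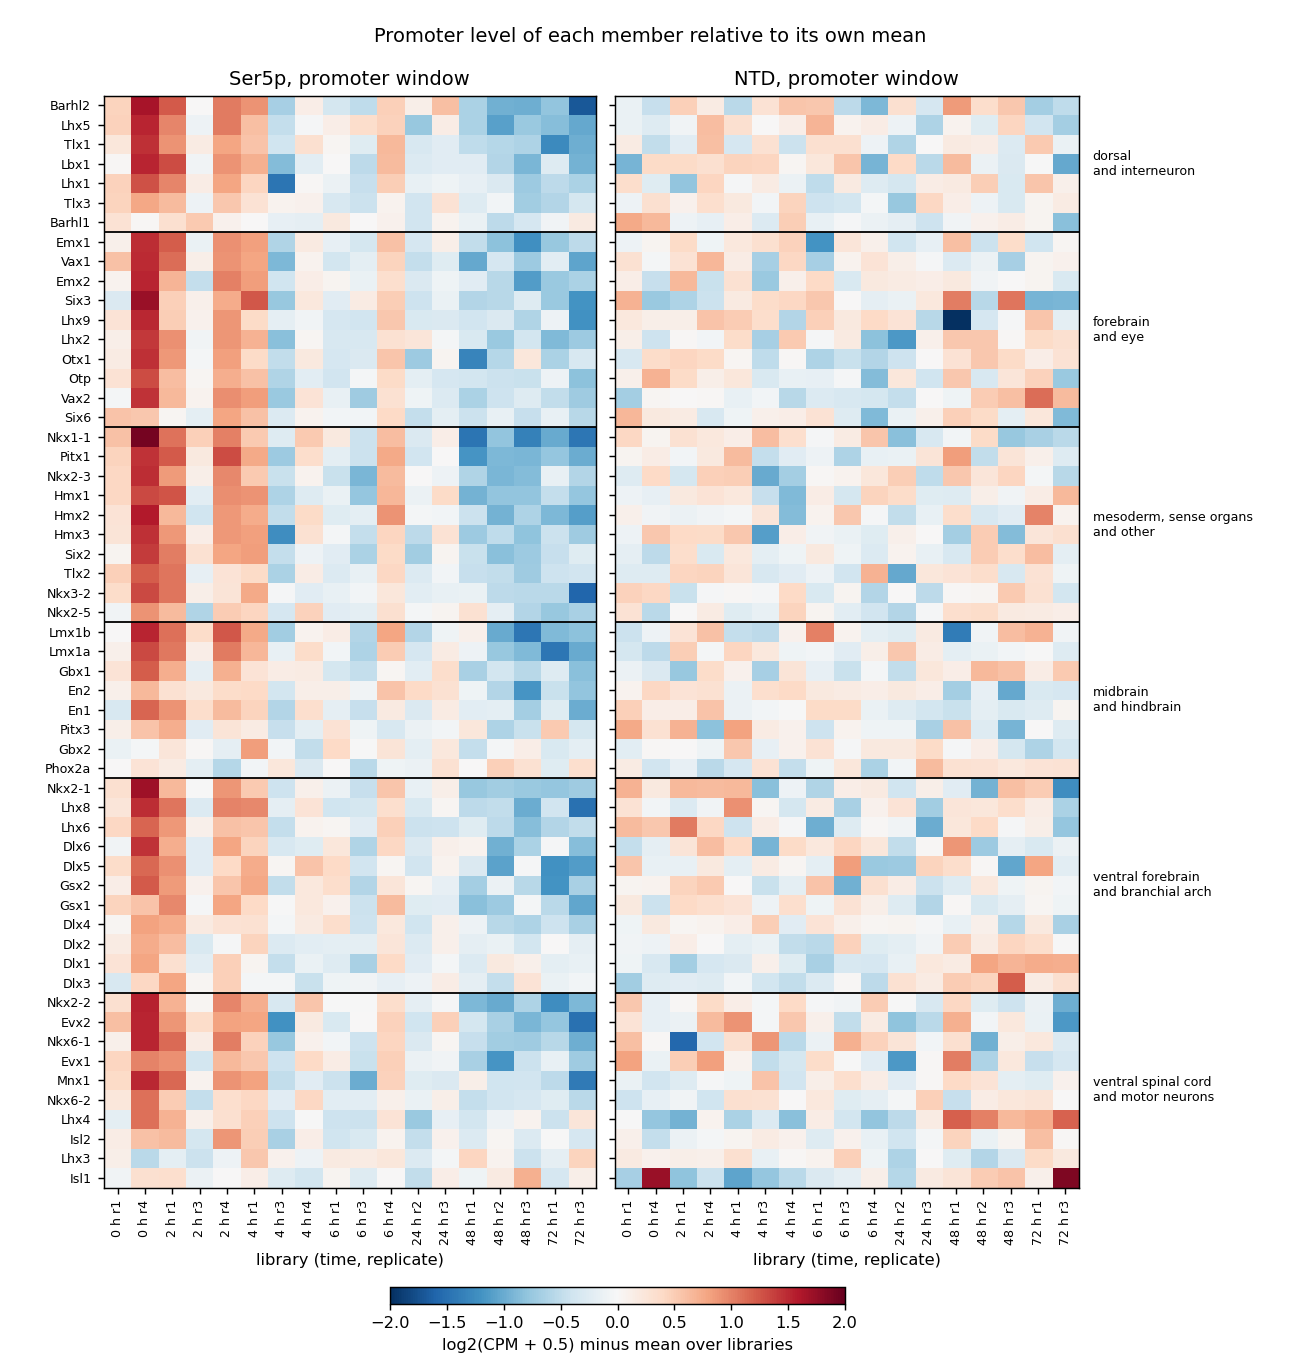
Log2 of CPM + 0.5 of each of the 56 genes (rows) in each library (columns) minus the gene's mean over the libraries, for Ser5p on the left and NTD on the right, grouped by the place where the gene is best known to act. Ser5p averages above the gene's mean at 0 and 2 h and below it at 48 and 72 h in most rows of every group, and NTD shows no such split.

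At 48 h of RA, 43 of the 56 genes had lower Ser5p than at 0 h, where 5.50% of all genes were called lower, and none was called higher, where 6.32% of all genes were. No gene was higher at an unadjusted p under 0.05, and DESeq2 called 34 lower and 0 higher. The median log2 change of the 56 genes was -1.33, against -0.08 over all genes, and 53 were below 0. At 72 h, set against the same 0 h libraries, 44 were lower and 0 higher, where 3.92% and 4.86% of all genes were called, with a median of -1.44 against -0.06 over all genes. DESeq2 called 31 lower and 0 higher at 72 h. Between the libraries numbered 1 alone, the median log2 difference from 0 h was -0.62 at 48 h and -0.71 at 72 h. At 48 h 48 of the 56 genes were lower and 8 higher in that comparison, and at 72 h 52 and 4. In bulk cells, fewer cells with polymerase at a promoter and less polymerase per cell cannot be told apart.

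The counts against 0 h moved most with 1 library of untreated cells left out, which leaves 1 library at 0 h. With no replicate at 0 h the calls of that fit are uncertain, and the share of all genes called in it is not given. Without 0 h Ser5p replicate 4, 5 genes were called lower at 48 h: Nkx1-1, Pitx1, Lhx5, Evx2 and Vax1. The median log2 change was then -0.72, and 51 of 56 genes were below 0. At 72 h without that library 6 genes were called lower, namely Nkx1-1, Evx2, Tlx1, Lhx5, Barhl2 and Nkx2-2, with a median of -0.85 and 51 of 56 below 0. The count at 72 h was 14 without 72 h replicate 3.

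The comparison of 48 h with 2 h, chosen after seeing the data because it uses no 0 h library, called 40 of the 56 genes lower and 0 higher, where 5.85% and 4.97% of all genes were called. The unadjusted p was under 0.05 for 1 gene in the higher direction, and DESeq2 called 33 lower and 0 higher. The median log2 change was -1.02, against -0.02 over all genes, with 53 of 56 genes below 0. The lower count was 24 without 2 h replicate 1 and 25 without 48 h replicate 3, the lowest of those with 1 library left out.

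The genes with the strongest evidence of change in Ser5p came from every group. Nkx1-1, a gene of the NK family, had 7.89, 12.8 and 8.51 CPM at 48 h, against 34.3 and 86.0 CPM at 0 h. Every 48 h library lay below all 13 earlier Ser5p libraries. Its log2 change was -2.56 ± 0.31 (SE; adjusted p = 2.4e-07, edgeR), and -1.78 without 0 h replicate 4 (adjusted p = 0.0010). Its NTD level was 7.31, 10.1 and 4.30 CPM at 48 h, against 10.3 and 7.97 CPM at 0 h, so the groups overlapped there.

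Among genes of the dorsal neural tube and interneurons, 6 of 7 were lower in Ser5p at 48 h against 0 h, with a median log2 change of -1.51; without 0 h replicate 4 it was 1 (Lhx5), with a median of -0.82. Barhl2 had 11.5, 9.16 and 8.98 CPM at 48 h, against 25.0 and 58.5 CPM at 0 h, a log2 change of -2.05 ± 0.36 (adjusted p = 0.00015, edgeR). Without 0 h replicate 4 it was -1.34 (adjusted p = 0.060). Lhx5, a LIM-homeodomain gene of the forebrain and of interneurons, had 13.4, 9.62 and 12.3 CPM at 48 h, against 29.2 and 61.6 CPM at 0 h. Its log2 change of -1.93 ± 0.31 (adjusted p = 5.9e-05, edgeR) stayed called with each library left out in turn, and was -1.31 without 0 h replicate 4 (adjusted p = 0.030). Tlx1, needed for the spleen in mice, had 7.64 and 9.498 CPM at 72 h, against 22.7 and 53.7 CPM at 0 h, a log2 change of -1.39 without 0 h replicate 4 (adjusted p = 0.043, edgeR). Tlx3, a selector of excitatory dorsal horn neurons, had the highest mean Ser5p of the 56 genes (46.5 CPM) and a smaller change, -0.94 ± 0.22 (adjusted p = 0.0040, edgeR), a call that was lost with 0 h replicate 4 left out (-0.76, adjusted p = 0.12). The gene of this group that was not called was Barhl1.

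Of the forebrain and eye genes, 10 of 10 were lower at 48 h against 0 h, with a median log2 change of -1.40. With 0 h replicate 4 left out only Vax1 of the 10 was called, all 10 were below 0, and the median was -0.70. Vax1, which acts in the optic nerve and ventral forebrain, had 10.3, 16.9 and 12.8 CPM at 48 h, against 32.4 and 61.6 CPM at 0 h, and its log2 change was -1.76 ± 0.32 (adjusted p = 0.00021, edgeR), and -1.25 without 0 h replicate 4 (adjusted p = 0.048). The ventral forebrain and branchial arch group had 8 of 11 genes lower, with a median of -1.19, and those not called were Dlx1, Dlx2 and Dlx3. In the fit that left out 0 h replicate 4, 0 of the 11 were called, 10 were below 0, and the median was -0.55. Nkx2-1, a gene of the ventral forebrain, thyroid and lung, had 12.1, 12.8 and 12.3 CPM at 48 h, against 26.4 and 68.9 CPM at 0 h. Its log2 change was -1.90 ± 0.31 (adjusted p = 5.6e-05, edgeR), and -1.08 without 0 h replicate 4 (adjusted p = 0.072). Lhx8, needed for cholinergic neurons of the basal forebrain, had 13.96, 14.2 and 9.92 CPM at 48 h, against 24.1 and 57.3 CPM at 0 h, and was not called without 0 h replicate 4 (log2 change -0.92, adjusted p = 0.21, edgeR).

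The mesoderm, sense organ and other group, which holds Nkx1-1, had 9 of 10 genes lower at 48 h and 10 of 10 at 72 h, with a median of -1.69 at 48 h. Without 0 h replicate 4 the counts were 2 (Nkx1-1 and Pitx1) at 48 h and 1 (Nkx1-1) at 72 h, with all 10 below 0 and a median of -0.9998 at 48 h. Pitx1, which gives the hindlimb its identity and acts in the pituitary, had 9.71, 11.9 and 11.8 CPM at 48 h, against 31.0 and 62.2 CPM at 0 h. Its 2 h libraries held 53.9, 25.9 and 56.5 CPM, above every 48 h library, and its log2 change was -2.02 ± 0.34 against 0 h (adjusted p = 8.6e-05, edgeR) and -2.01 against 2 h. Without 0 h replicate 4 it was -1.45 against 0 h (adjusted p = 0.025, edgeR). Tlx2 had 16.99, 16.5 and 14.2 CPM at 48 h, against 32.9 and 54.9 CPM at 0 h, and was not called without 0 h replicate 4 (log2 change -1.04, adjusted p = 0.068, edgeR).

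The ventral spinal cord and motor neuron group was mixed, with 6 of 10 genes lower at 48 h against 0 h and a median of -1.18. Only Evx2 of the 10 was called without 0 h replicate 4, 8 were below 0, and the median was -0.61. Nkx2-2 and Nkx6-1, which define ventral progenitor domains, were both lower with all libraries, and neither was called without 0 h replicate 4 (log2 changes -1.18 and -0.74, adjusted p = 0.067 and 0.29, edgeR). Nkx2-2 had 8.50, 7.79 and 10.4 CPM at 48 h, against 20.4 and 48.2 CPM at 0 h, a log2 change of -1.90 ± 0.32 (adjusted p = 8.2e-05, edgeR). Nkx6-1 had 15.2, 12.8 and 12.8 CPM at 48 h, against 22.7 and 61.6 CPM at 0 h. Evx2, the neighbour of the Hoxd cluster, had 16.99, 13.7 and 11.3 CPM at 48 h, against 33.3 and 63.4 CPM at 0 h, and its change was -1.77 ± 0.32 (adjusted p = 0.00019, edgeR), and -1.26 without 0 h replicate 4 (adjusted p = 0.046). The LIM genes of motor neurons, Isl1, Isl2, Lhx3 and Lhx4, were the 4 not called.

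The midbrain and hindbrain group had the fewest calls, 4 of 8, with a median of -0.96, and without 0 h replicate 4 it had 0, with 6 below 0 and a median of -0.53. Lmx1a, a gene of midbrain dopaminergic progenitors and the roof plate, had 13.4, 8.24 and 7.56 CPM at 48 h, against 15.3 and 36.6 CPM at 0 h, so replicate 1 at 0 h lay just above the highest 48 h library. Its call was lost with 0 h replicate 4 left out (-0.68, adjusted p = 0.42, edgeR). Gbx2 had 24.3, 33.0 and 37.3 CPM at 48 h, against 31.0 and 32.9 CPM at 0 h, with overlapping groups and a log2 change of 0.00. Phox2a had 25.5, 35.3 and 31.2 CPM at 48 h, against 25.5 and 30.5 CPM at 0 h. The other genes not called were En1 (adjusted p = 0.051, edgeR) and Pitx3.

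**Figure D4:**
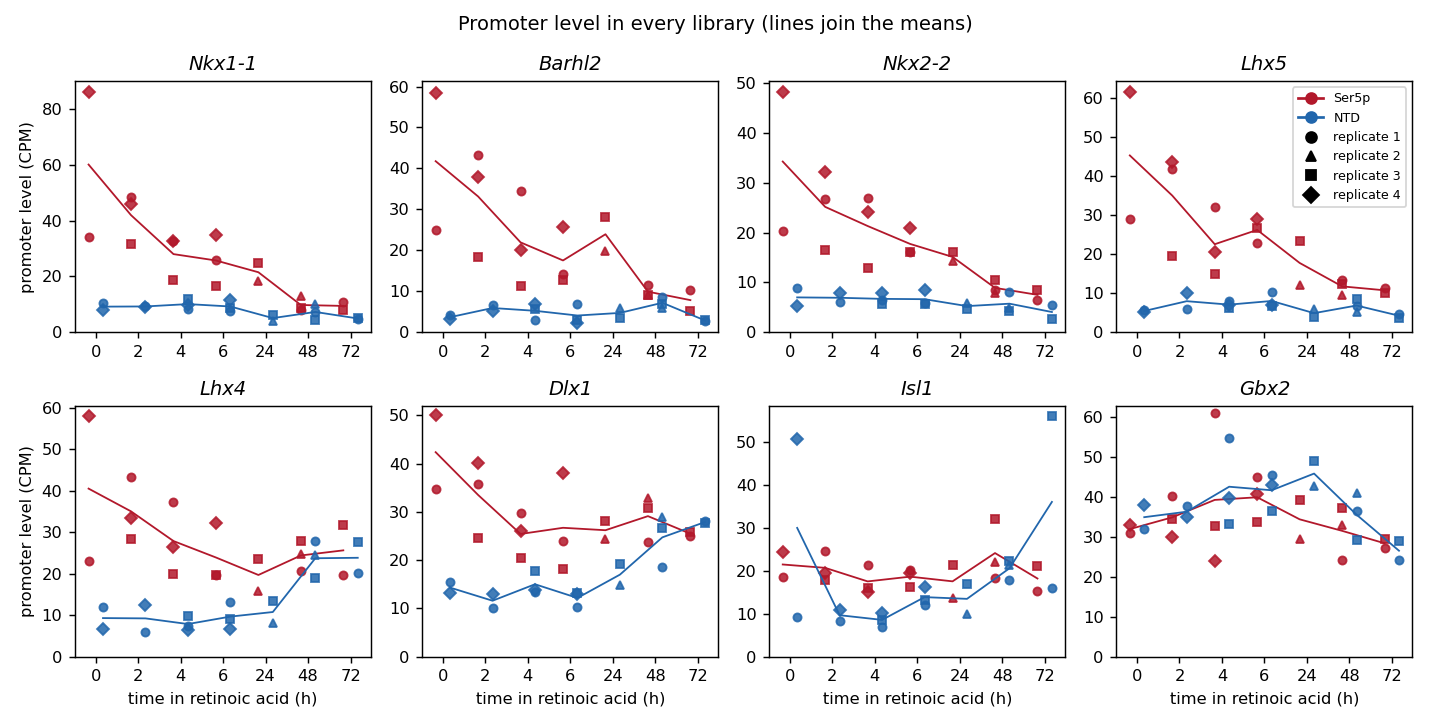
CPM in the promoter window of each library by hours of RA for 8 of the 56 genes, with Ser5p and NTD in separate colours. Ser5p of Nkx1-1, Barhl2, Nkx2-2 and Lhx5 is 7.79 to 13.4 CPM at 48 h, against 20.4 to 86.0 CPM at 0 h, while Lhx4 and Dlx1 gain NTD at 48 and 72 h and Gbx2 has overlapping Ser5p values at 48 and 0 h.

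Over the first 6 h of RA the Ser5p level of the 56 genes was lower in the median, but no gene was called. At 6 h against 0 h the median log2 change of the 56 genes was -0.81, against -0.03 over all genes, with 54 genes below 0. No gene passed the test in either direction, where 0.0524% of all genes were called higher and 0.00873% lower. DESeq2 also called 0, while 41 genes were lower and 0 higher at an unadjusted p under 0.05. Fits that leave out a 0 h library have no replicate at 0 h, so their calls are uncertain. Shares of all genes are not given for the fits with a library left out. Without 0 h replicate 1, 38 genes were called lower, without 6 h replicate 4, 10 were, without 2 h replicate 3 or 4 h replicate 1 or 3, 1 was, and without 0 h replicate 4 the median was -0.20. The comparison of 48 h with 6 h, which sets no 0 h library against a later one, called 5 genes lower, where 3.20% of all genes were called. They were Nkx1-1 (-1.38 ± 0.31, adjusted p = 0.0032), Lhx5 (-1.17 ± 0.30, 0.011), Pitx1 (-1.15 ± 0.33, 0.026), Nkx2-2 (-0.99 ± 0.32, 0.046) and En2 (-0.83 ± 0.23, 0.017), by edgeR; En2, a gene of the midbrain-hindbrain boundary, is named because the count is small and was chosen after its values were seen. No gene was called higher, where 3.56% of all genes were; 1 was higher at an unadjusted p under 0.05, and DESeq2 called 3 lower and 0 higher. The lower count was 0 without 6 h replicate 4, 1 without 48 h replicate 2 or 3, 8 without 2 h replicate 3, and 9 without either 0 h library.

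Other gene lists moved in Ser5p beside the 56. Of 46 other homeobox genes, 22 were lower and 1 higher at 48 h against 0 h, with a median of -0.95. Of 14 neural genes 9 were lower, with a median of -1.04. Among all genes 5.50% were called lower and 6.32% higher. With 0 h replicate 4 left out, 5 of the 46 were lower and 1 higher (median -0.57), and 1 of the 14 was lower (median -0.33). The summed Ser5p level of 12 pluripotency genes was 539 to 614 CPM at 48 h, against 859 to 921 CPM at 0 h. That of 11 primitive endoderm genes was 207 to 296 CPM at 48 h, against 241 to 405 CPM at 0 h, with overlapping groups. For 10 mesoderm genes it was 132 to 146 CPM, against 195 to 306 CPM. For 8 feeder (fibroblast) genes it was 77.9 to 112 CPM, against 96.3 to 114 CPM. Without 0 h replicate 4 the median log2 change at 48 h was 0.31 for the primitive endoderm genes, with 5 of 11 below 0. It was then -0.76 for the pluripotency genes, -0.56 for the mesoderm genes and -0.20 for the feeder genes. No gene of these lists was at 0 in any library, and the part of a change in cell types in the values of the 56 genes was not tested. RA response genes went the other way, with 8 of 14 higher and a median of 0.81, or 7 of 14 and 1.22 without 0 h replicate 4.

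Few of the 56 genes were called as changed in total polymerase. Most of them held few NTD reads, so a fall in NTD could go uncalled. A check used simulated counts, with changes put into transcripts drawn at random from all that passed the filter. Of changes of 1 on the log2 scale, 44.2% were recovered in NTD at 48 h against 6 h, and 50% in Ser5p. Recovery at the 56 promoters, whose median NTD level was below that of all genes, was not measured. The NTD test over time called 5 of 56 genes, where 15.1% of all genes were called: Lhx4, Isl1, Dlx1, Dlx3 and Vax2. DESeq2 called 4, and 12 genes had an unadjusted p under 0.05. Lhx4 (adjusted p = 2.5e-06), Dlx1 (0.00021) and Isl1 (3.6e-05) were called under every alternative tried, with an adjusted p of at most 9.0e-05, 0.0034 and 0.046. Dlx3 and Vax2 were not called without 48 h replicate 3 (adjusted p up to 0.11 and 0.17 over all alternatives), nor Vax2 without 72 h replicate 1. The median log2 change in NTD at 48 h against 0 h was 0.15, against -0.04 over all genes.

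Lhx4, which specifies motor neurons and pituitary cells together with Lhx3, had 27.9, 24.4 and 18.9 CPM of NTD at 48 h and 20.1 and 27.6 CPM at 72 h, against 11.9 and 6.78 CPM at 0 h. All 5 late libraries lay above all 12 earlier ones, of which the highest held 13.5 CPM. The log2 change was 1.40 ± 0.31 at 48 h against 0 h (adjusted p = 0.0013) and 1.36 ± 0.27 against 6 h (adjusted p = 0.00041), both by edgeR. Against 0 h the 48 h call was lost without 0 h replicate 4, and the 72 h call without that library or 72 h replicate 3. Over the alternatives the change against 0 h was 1.04 to 1.84 at 48 h and 0.76 to 1.88 at 72 h. The call at 48 h against 6 h was lost under no alternative. Its Ser5p level was 20.6, 24.7 and 27.9 CPM at 48 h, against 23.1 and 57.9 CPM at 0 h, a log2 change of -0.68 (adjusted p = 0.11), and 0.10 without 0 h replicate 4.

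Dlx1, which guides the migration of forebrain interneurons, had 18.6, 28.9 and 26.7 CPM of NTD at 48 h and 28.1 and 27.6 CPM at 72 h, against 15.5 and 13.2 CPM at 0 h. At 24 h it had 14.9 and 19.2 CPM, of which the second lay above the lowest 48 h library. Its log2 change was 0.82 ± 0.25 at 48 h against 0 h (adjusted p = 0.030) and 1.03 ± 0.23 against 6 h (adjusted p = 0.0018), by edgeR. Dlx3, a gene of ectoderm and placenta, had 17.3, 16.5 and 28.4 CPM at 48 h, against 7.23 and 9.97 CPM at 0 h, a log2 change of 1.18 ± 0.29 (adjusted p = 0.0046, edgeR). Vax2, which patterns the ventral retina, had 17.4 and 12.3 CPM at 72 h, against 4.65 and 7.97 CPM at 0 h, a log2 change of 1.14 ± 0.35 (adjusted p = 0.031, edgeR). At 48 h against 0 h the Dlx1 call was lost with DESeq2, without either 0 h library and without 48 h replicate 2 or 3. The Dlx3 call was lost without 0 h replicate 1. The Vax2 call was lost with DESeq2 and without 0 h or 72 h replicate 1, among others. Isl1 had 17.9, 21.4 and 22.4 CPM at 48 h and 16.1 and 55.9 CPM at 72 h, against 9.30 and 50.6 CPM at 0 h. The libraries NTD 0 h replicate 4 and 72 h replicate 3 stood far above the rest for Isl1, which lay between 6.97 and 22.4 CPM.

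Marker genes of primitive endoderm moved in NTD beside these gains. The summed NTD level of the 11 genes was 191 to 254 CPM at 48 h and 232.2 to 401 CPM at 72 h, against 115 to 128 CPM at 0 h. Of the 11, 4 were called higher at 48 h and 8 at 72 h, where 4.57% and 5.55% of all genes were. The summed NTD level of the 14 neural genes was 213 to 263 CPM at 48 h, against 203 to 232.4 CPM at 0 h, and that of the 10 mesoderm genes 89.8 to 116 CPM, against 72.6 to 104 CPM. No gene of these lists was at 0 in any NTD library, and the part of a change in cell types in the NTD gains of Lhx4, Dlx1, Dlx3 and Vax2 was not tested.

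In each contrast the NTD calls were few. Higher NTD at 48 h against 0 h was called for 3 genes (Lhx4, Dlx3 and Dlx1), where 4.57% of all genes were called, and En2 was lower, where 5.21% were. En2 had 13.3, 19.2 and 10.3 CPM at 48 h, against 22.7 and 29.1 CPM at 0 h (log2 change -0.79 ± 0.25, adjusted p = 0.033, edgeR). The higher count was 1 without either 0 h library, and the En2 call was lost without 0 h replicate 4, without 2 h replicate 1 or 4, and without 48 h replicate 1 or 3. At 72 h, set against the same 0 h libraries, Lhx4 (1.43 ± 0.32, adjusted p = 0.0019), Vax2 and Dlx1 (0.96 ± 0.27, adjusted p = 0.013) were higher by edgeR, where 5.55% of all genes were called. Barhl1 was lower, with 8.04 and 4.09 CPM at 72 h, against 13.4 and 12.4 CPM at 0 h (adjusted p = 0.028, edgeR), where 3.51% were called, and this call was lost without either 0 h library or 72 h replicate 3. Without 72 h replicate 3 the higher count was 1. Lhx4, Dlx1, Otx1 and Dlx3 were higher at 48 h against 6 h, where 3.56% of all genes were called, and En2 was lower, where 6.51% were. Otx1, a forebrain gene, had 11.3, 13.5 and 12.1 CPM at 48 h, against 5.77, 6.59 and 5.93 CPM at 6 h, a log2 change of 1.03 ± 0.30 (adjusted p = 0.017, edgeR). The higher count was 2 without 6 h replicate 4, and the En2 call was lost with any of 12 of the 17 libraries left out. Lhx4, Dlx1 and Dlx3 were higher at 48 h against 2 h, where 3.92% were called, and En2 lower, where 3.59% were; the higher count was 0 without 2 h replicate 1, and the En2 call was lost without either 2 h library or 48 h replicate 1 or 3. At 6 h against 0 h edgeR and DESeq2 called 0 genes in either direction, where 0.334% and 0.537% of all genes were called higher and lower, and at an unadjusted p under 0.05 it was 0 higher and 6 lower; 1 gene was called lower without 0 h replicate 1 or either 72 h library.

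**Figure D5:**
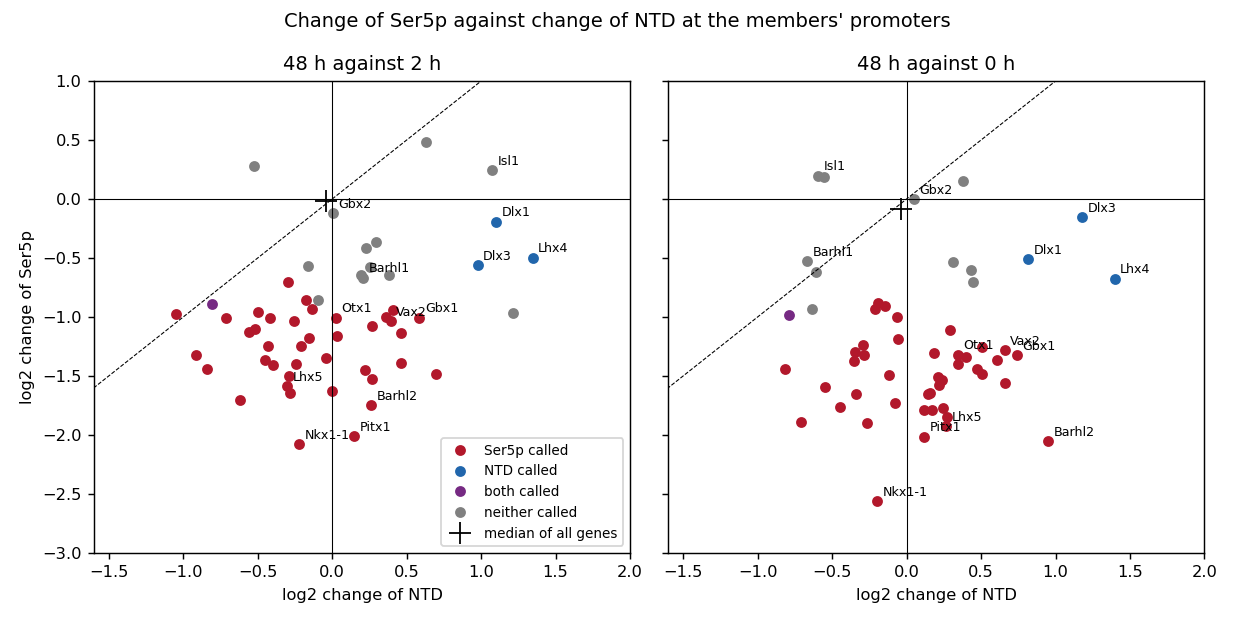
Log2 change of each of the 56 genes in NTD (horizontal axis) and in Ser5p (vertical axis) at 48 h against 2 h, on the left, and at 48 h against 0 h, on the right. In both panels 53 genes lie below 0 in Ser5p, with medians of -1.02 and -1.33, while the NTD medians are -0.02 and 0.15.

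Whether Ser5p and NTD changed differently at the same gene was tested in 1 model over both antibodies. This test missed most small differences in simulated counts of transcripts drawn from all that passed the filter. Of changes of 1 on the log2 scale in Ser5p alone, 22% were recovered at 48 h against 6 h and 38% over time. Over time Lhx4 alone was called (adjusted p = 0.023, edgeR), where 0.166% of all genes were called, and 26 genes had an unadjusted p under 0.05. The count was 10 without Ser5p 0 h replicate 1, and 2 to 4 without 1 of Ser5p 2 h replicate 3, 4 h replicate 1 or 3, 6 h replicate 3 or 4, or NTD 0 h or 72 h replicate 1. It was 0 without Ser5p 48 h replicate 1 or 2, Ser5p 72 h replicate 1, NTD 4 h replicate 4 or any NTD 48 h library. For 48 h against 6 h edgeR and DESeq2 called 0 genes, where 0.00% of all genes were called in either direction, with 14 lower and 0 higher at an unadjusted p under 0.05 and a median difference of -0.66 on the log2 scale. Against 0 h, a contrast chosen after seeing the data, 4 genes had a more negative change in Ser5p than in NTD at 48 h, where 0.318% of all genes were called. They were Barhl2 (-3.0 ± 0.67, adjusted p = 0.032), Nkx1-1 (-2.37 ± 0.52, 0.032), Lhx4 (-2.07 ± 0.46, 0.032) and Gbx1 (-2.06 ± 0.47, 0.037), by edgeR; Gbx1 is named because the count is small. Gbx1 had Ser5p of 11.5, 14.2 and 12.3 CPM at 48 h, against 22.2 and 43.3 CPM at 0 h, and NTD of 9.30, 13.5 and 12.9 CPM at 48 h, against 7.75 and 6.78 CPM at 0 h. At 72 h, also chosen after seeing the data, Vax2 was called (-2.61 ± 0.57, adjusted p = 0.043, edgeR), where 0.0567% of all genes were. Its Ser5p level was 14.7 and 12.7 CPM at 72 h, against 20.4 and 57.9 CPM at 0 h. DESeq2 called 2 at 48 h and 0 at 72 h, and no gene was called in the other direction by either tool, where 0.0262% and 0.00% of all genes were at 48 h and 72 h, with 0 and 1 at an unadjusted p under 0.05. The median differences were -1.38 and -1.45, against 0.06 to 0.07 over all genes. Without replicate 4 of 0 h in both antibodies, 0 genes were called at 48 h and 0 at 72 h. The count at 48 h was 27 without Ser5p 0 h replicate 1, 8 without either NTD 72 h library, and 0 to 2 without 1 of the 0 h replicate 4 or 48 h libraries of either antibody. The Vax2 call at 72 h was lost without any of most single libraries, among them each NTD and Ser5p library of 72 h, and the count was 15 without Ser5p 0 h replicate 1.

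Over the gene bodies, few of these genes were called as changed. In the authors' FPKM values, which divide by transcript length, the highest mean NTD level was that of Phox2a, 3.34, followed by Gbx2 with 2.54, Tlx3 with 2.01 and Nkx6-2 with 1.83, against a median of 0.893 over all genes. In Ser2p Phox2a and Tlx3 were at 2.08 and 1.63 FPKM, against a median of 0.936 over all genes. Other RefSeq genes overlap Phox2a (Inppl1) and Nkx6-2 (Gm33031 and Inpp5a). Body reads of these neighbours cannot be told apart from those of Phox2a and Nkx6-2. The NTD body test over time called 0 of the 56 genes, where 7.32% of all genes were called; DESeq2 called 0 and 8 genes had an unadjusted p under 0.05, and 1 was called without 48 h replicate 2. Between 48 h and 6 h, 2 genes were higher at 48 h, where 3.53% of all genes were called, and 0 were lower, where 5.64% were, with 2 lower at an unadjusted p under 0.05 and 0 by DESeq2. The 2 were Dlx1 and Dlx3, which also rose at their promoters. Dlx1 had 4.18, 5.72 and 4.28 CPM at 48 h, against 3.05, 2.88 and 3.72 CPM at 6 h (log2 change 0.56 ± 0.16, adjusted p = 0.040, edgeR). Dlx3 had 4.18, 4.46 and 5.05 CPM at 48 h, against 2.99, 3.34 and 2.69 CPM at 6 h (0.60 ± 0.15, adjusted p = 0.021, edgeR), and DESeq2 called 1 of the 2. The count was 0 without 6 h replicate 1 or 48 h replicate 3, and 1 without 0 h replicate 1 or 4, 4 h replicate 3, 6 h replicate 3 or 4, or 48 h replicate 1; the lower count was 2 without 48 h replicate 2. Lhx4, a long gene, had 18.9, 15.9 and 20.6 CPM over its body at 48 h, against 17.6, 14.8 and 17.1 CPM at 6 h, with overlapping groups.

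At 72 h against 0 h the NTD body test called 0 genes in either direction with edgeR and DESeq2, where 2.69% and 1.58% of all genes were called higher and lower, and 2 were higher and 5 lower at an unadjusted p under 0.05. Without 72 h replicate 1, 2 were called higher and 2 lower, and without 48 h replicate 2, 1 was called higher. Ser2p over the bodies called 0 of the 56 genes over time with edgeR and DESeq2, where 7.03% of all genes were called and 4 of the 56 had an unadjusted p under 0.05; 1 was called without 4 h replicate 3. At 72 h against 0 h, 48 of the 56 genes had a Ser2p change below 0, with a median of -0.20 on the log2 scale against -0.03 over all genes. Neither edgeR nor DESeq2 called any of them (0 higher and 0 lower, where 1.09% and 0.366% of all genes were called), and 11 were lower and 0 higher at an unadjusted p under 0.05. Without 72 h replicate 1, 2 were called lower, and without 48 h replicate 2, 1 was. Both tools again called 0 at 48 h against 6 h, where 2.34% and 2.77% of all genes were called, with 4 lower and 0 higher at an unadjusted p under 0.05. Dlx1, which gained NTD, had Ser2p of 3.93, 3.97 and 3.32 CPM at 48 h, against 2.35, 4.28 and 3.72 CPM at 6 h, with overlapping groups. The change of Ser2p relative to NTD over the bodies was called for 0 of 56 genes over time by edgeR and DESeq2, where 0.00% of all genes were called and 1 of the 56 had an unadjusted p under 0.05. It was also called for 0 at 48 h against 6 h by both tools, where 0.00449% of all genes were called higher and 0.00% lower, with 1 higher and 3 lower at an unadjusted p under 0.05.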

How the data were processed

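ChIP-seq libraries of NTD, Ser5p and Ser2p were analysed from 4 tables of the deposited read counts, raw counts per transcript in the 2 kb around the start or over the gene body. The submitters' processing notes name Bowtie2, SAMtools, MACS2, DESeq2, mm10 and dm6; which tool counted the reads is not given in those notes or in the table headers. The authors also deposited normalized signal, which equalled the raw counts times 1 factor per library and was used as an alternative scale, and FPKM over bodies, which the authors made from those values and a length per transcript. Of 157 samples in the labels 53 had a column and 104 were not analysed here, and 14 columns were not used. The 80 to 106 rows per table without a gene symbol, 0.0166% to 0.0761% of the counts, were left out.

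Counts were tested with edgeR 4.0.16 (R 4.3.3; TMM within an antibody, filterByExpr, glmQLFit and glmQLFTest, 1 term per time, no replicate block, Benjamini-Hochberg over all transcripts, threshold 0.05), in Ser5p and NTD jointly for the antibody by time terms. Calls were counted on 1 transcript per symbol, with 22143 genes tested in NTD and 22897 in Ser5p. DESeq2 1.42.0, the authors' scale, no filter, a replicate block and leaving out libraries were alternatives. Figures used matplotlib 3.10.9. Read intervals cover counting error only. No replicate libraries of the same time were duplicates: the lowest chi-square per gene between them was 1.31. Libraries of different times were not part of this check.

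The 56 genes, the other lists, the rule for named genes and the tests were chosen with earlier results of these data known. Genes named are those called over time in NTD, the 12 with the smallest p over time in Ser5p, the highest mean per group, and those called in the antibody and body tests; Tlx2, Phox2a, Lhx3, Barhl1, En2, Gbx1 and Otx1 include genes named after their values were seen.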

Additional observations from a re-analysis of the deposited data

Results flagged for a closer look

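These 6 results were picked out because the change over time differed between the 2 antibodies in a test of the difference itself (edgeR's quasi-likelihood test on Ser5p and NTD jointly, adjusted over all transcripts). Lhx4 differed over the 7 times with an adjusted p of 0.0232. At 48 h against 0 h, the change in Ser5p minus the change in NTD was -3.0 for Barhl2, -2.37 for Nkx1-1, -2.07 for Lhx4 and -2.06 for Gbx1 on the log2 scale. At 72 h against 0 h it was -2.61 for Vax2. For Lhx4 the NTD level was the one that passed its own test, and for Nkx1-1 and Barhl2 the Ser5p level was. None of the 5 values against 0 h was called without replicate 4 of 0 h in both antibodies, in which the median Ser5p of the 56 genes was 45.4 CPM, against 22.9 CPM in replicate 1. The part of that library in these values beyond this count was not tested. No time had the 4 libraries that a search for single outlying samples needs.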

How the results depend on the processing

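Each count of the 56 genes called was recomputed with each library left out (lowest to highest given), on the authors' scale, with DESeq2, with no filter and with a replicate block. In NTD promoters, the 5 genes over time became 3 to 6, and 3 with the block. The 0 lower at 6 h against 0 h became 0 to 1, and 1 with the block. For 48 h against 0 h the 3 higher became 1 to 3, and 1 without both NTD 0 h replicate 4 and 72 h replicate 3; the 1 lower became 0 to 1, and 0 on the authors' scale, with DESeq2 and without those 2 libraries. At 72 h the 3 higher became 1 to 3, 1 with the block and 0 without those 2 libraries; the 1 lower became 0 to 1, and 0 on the authors' scale, with DESeq2, with the block and without both. For 48 h against 6 h the 4 higher became 2 to 4 and the 1 lower 0 to 1, and 0 on the authors' scale, with DESeq2 and without both. For 48 h against 2 h the 3 higher became 0 to 4 and the 1 lower 0 to 1, and 0 on the authors' scale and with DESeq2. In Ser5p promoters, the 0 lower at 6 h became 0 to 38, and 1 with the block; the 43 lower at 48 h became 5 to 45, 22 with the block and 7 without the 4 libraries numbered 4; the 44 lower at 72 h became 6 to 46, and 6 without those 4; the 5 lower at 48 h against 6 h became 0 to 9, 3 on the authors' scale and with DESeq2, and 2 with the block and without those 4; the 40 lower at 48 h against 2 h became 24 to 45. In NTD bodies, 0 over time became 0 to 1, 0 higher and 0 lower at 72 h became 0 to 2 each and 1 lower with the block, 2 higher at 48 h against 6 h became 0 to 3 and 1 on the authors' scale and with DESeq2, and 0 lower became 0 to 2. In Ser2p bodies, 0 over time became 0 to 1 and 0 lower at 72 h 0 to 2. For Ser5p against NTD, 1 over time became 0 to 10, 7 on the authors' scale and 0 without both NTD libraries; 4 lower at 48 h became 0 to 27, 7 on the authors' scale, 2 with DESeq2, and 0 with the block, without both NTD libraries and without both 0 h replicate 4 libraries; 1 lower at 72 h became 0 to 15, 3 on the authors' scale, and 0 with DESeq2, no filter, the block, both NTD libraries out and both 0 h replicate 4 libraries out. The cause of these moves was not tested. No change that was called turned its direction under any alternative. Most alternatives refit the same libraries with 1 left out, so a called change could hardly turn and this is a weak check. Of 23905 gene, comparison and alternative combinations that were not called, 785 did turn. An example is Ser5p of Lhx4 at 48 h against 0 h (-0.68, and 0.10 without 0 h replicate 4). The authors' scale moved the median of all genes by 0.21 (log2) in Ser5p at 48 h against 0 h, and the median of the 56 genes was then -1.05. Same-numbered libraries had a median correlation of deviations from the time means of 0.107 in NTD and 0.0957 in Ser5p promoters, 0.192 in NTD bodies and 0.0582 in Ser2p bodies, against -0.0467, -0.0345, -0.105 and -0.0138 for other pairs. The lowest same-numbered values were -0.192, -0.231, -0.44 and -0.465, and the labels tie the numbers to no shared culture or day, so the numbers were not taken to pair the libraries. At the 56 genes, the median Ser5p was lowest in replicate 3 at 2, 4, 6, 48 and 72 h (18.7, 13.4, 15.7, 11.8 and 11.1 CPM). At 24 h replicate 3 was the higher (19.0 against 16 CPM). The reason was not tested. With the replicate block the Ser5p against NTD call over time was 1, Isl1 (adjusted p = 0.012, edgeR) in place of Lhx4 (0.53). Few reads limit single genes most in NTD, with 629 to 1587 reads over the 56 promoters of a library.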
